A study of Mustela putorius furo and Mus musculus with 4 samples.

Results

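Toll-like receptors are pattern recognition receptors of the innate immune system. Those at the cell surface sense bacterial lipids, lipopolysaccharide and flagellin, and those in endosomes sense nucleic acids. Ligand binding outside, through leucine-rich repeats, brings together TIR domains inside the cell, which recruit either MyD88 or TRIF (encoded by Ticam1) and lead to NF-kB and interferon regulatory factors. In the brain these receptors are best known from microglia, and astrocytes are known in particular for TLR3.

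The genes described here are 10 named members of this system: the surface receptors Tlr2, Tlr4 and Tlr5, the endosomal receptors Tlr3, Tlr7, Tlr8 and Tlr9, the co-receptor Cd14, and the adaptors Myd88 and Ticam1. They were found by their symbol, without regard to case, and 9 of the 10 had a row in both species, among 13373 symbols that the species share. Tlr9 was missing in the ferret rows, so it has mouse values alone. No member had more than 1 row in a species.

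The values come from 2 libraries of ferret (Mustela putorius furo) astrocytes, cultured from cortices of P1 pups, and 2 libraries of mouse astrocytes (strain ICR), cultured from cortices of P1 to P3 pups. Mixed glia of both species were grown in serum for 14 days, shaken for 12 h to remove loosely attached cells, replated, and taken off serum before RNA was harvested. A ferret pup filled several flasks, whereas several mouse pups were pooled in a flask. Whether duplicates are separate cultures is not given in the sources used here, so the p-values measure the spread between these libraries, which may be technical. Pairs of values below are given in the order of replicate 1 and replicate 2. The deposited unit was FPKM, fragments scaled to exon length and to the mapped fragments of the library, which allows levels of different genes to be set side by side. FPKM alone gives no absolute depth, and the read counts that the study also made were not used here. The steps between the lowest values gave a depth of ferret replicate 1 that was 1.17 times that of replicate 2, and of mouse replicate 1 that was 0.834 times that of replicate 2. Species, gene annotation and culture cannot be told apart in this design.

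The astrocyte markers Gfap and Aqp4 were present in all 4 libraries, with 1481 and 1522 FPKM of Gfap in the ferret and 1429 and 1546 in the mouse libraries, while Aqp4 was at 24.8 and 21.8 FPKM in ferret, against 202 and 210 FPKM in mouse. Of the 8 astrocyte markers, 4 were called lower, 1 was called higher (S100b, with means of 246 FPKM in ferret, against 60.2 FPKM in mouse) and 3 were not called, by the limits given below. By the same limits, 30.1% of all genes tested were called lower and 13.1% higher in ferret astrocytes. Of 20 microglial markers, 18 had rows in both species, and their summed level ranged from 78.1 to 78.6 FPKM in the ferret and from 1023 to 1045 FPKM in the mouse libraries. The median over these markers was 0.453 and 0.503 FPKM in ferret, against 47.8 and 47.1 FPKM in mouse. Cx3cr1 was listed at 0 in both ferret libraries. Markers of meningeal fibroblasts summed to 112 to 127 FPKM in the ferret and 1550 to 1576 FPKM in the mouse libraries. Those of endothelial cells summed to 0.445 to 0.569 in ferret and 25.2 to 25.7 in mouse. Most of that mouse sum was Cdh5, at 22.0 and 22.5 FPKM, while Pecam1 was at 0.041 and 0.031 FPKM. The 9 of 10 oligodendrocyte lineage markers shared by both species summed to 169 to 188 in ferret and 69.0 in both mouse libraries. Olig1, without a ferret row and so left out, was at 107 and 117 FPKM in mouse. The 5 of 8 neuronal markers shared by both species summed to 29.1 to 30.4 in ferret and 32.0 to 33.2 in mouse. Stmn2 and Nefm, left out likewise, were at 124 and 127 and at 0.892 and 0.853 FPKM in mouse. Most of the neuronal sum was Map2, while Syt1 and Nefl were called higher in ferret astrocytes, with means of 5.02 and 5.05 FPKM in ferret, against 1.19 and 0.115 FPKM in mouse. The collagen gene Col1a1 was at 32.2 and 28.8 FPKM in ferret, against 164 and 156 FPKM in mouse, and the myelin gene Mbp at 28.5 and 33.1, against 2.95 and 1.78. Of the 8 oligodendrocyte lineage markers tested, 3 were called higher and 5 were not called, and among the latter Olig2 had means of 5.05 FPKM in ferret, against 9.71 FPKM in mouse. S100b, Syt1, Nefl, Olig1, Olig2, Stmn2 and Nefm were singled out after their values were seen. The endothelial genes Pecam1, Cdh5 and Tek were listed at 0 in both ferret libraries, and Cldn5 in both mouse libraries. These are bulk RNA values, in which fewer cells of a type and less RNA per cell cannot be told apart.

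Because Toll-like receptors are paralogs, the mouse coding sequences were compared first, to see whether reads could be shared. Cd14, which is no Toll-like receptor, was not compared. Between the other 9 members, Tlr9 included, in 36 pairs, the longest identical run was 16 bases, in Tlr4 and Tlr3, and the next was 15 bases, in Tlr8 and Tlr9. These runs are shown with 20 bases on both sides and with the identical bases in capitals, as read on the coding strand from the GENCODE M21 transcripts on GRCm38. The Tlr4 stretch lies at chr4:66840223-66840278 on the plus strand, the Tlr3 stretch at chr8:45398219-45398274 on the minus strand, the Tlr8 stretch at chrX:167245614-167245668 on the minus strand and the Tlr9 stretch at chr9:106224752-106224806 on the plus strand, each within 1 coding exon.
Tlr4: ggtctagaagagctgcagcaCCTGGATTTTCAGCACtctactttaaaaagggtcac
Tlr3: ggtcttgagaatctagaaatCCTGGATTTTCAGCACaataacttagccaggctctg
Tlr8: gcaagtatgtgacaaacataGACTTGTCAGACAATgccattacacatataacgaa
Tlr9: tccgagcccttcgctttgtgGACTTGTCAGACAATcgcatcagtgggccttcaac

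Tlr1 and Tlr6, the partners of Tlr2 in sensing lipopeptides, are not members, but were added to this comparison for their known similarity. They shared an identical run of 229 bases, the only run at least as long as a read among 55 pairs. In the mouse it lies at chr5:64925537-64925765 in Tlr1 and at chr5:64953828-64954056 in Tlr6, both on the minus strand, and it is printed because reads within it fit both genes equally well. The values of Tlr1 and Tlr6 are therefore uncertain to that extent.
Tlr1 and Tlr6: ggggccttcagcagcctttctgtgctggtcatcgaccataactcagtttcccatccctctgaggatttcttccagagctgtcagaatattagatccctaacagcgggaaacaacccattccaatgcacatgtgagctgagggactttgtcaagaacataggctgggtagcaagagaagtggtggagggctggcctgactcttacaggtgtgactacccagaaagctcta

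Of the 9 members present in both species, 7 were lower and 1 was higher in ferret astrocytes, and Myd88 did not pass the limit on size. Calls required a Benjamini-Hochberg adjusted p below 0.05 and a difference of more than 1 in either direction, from limma on log2(FPKM + 1) over 10204 genes, and each difference given is ferret minus mouse on that log2 scale. Over all genes tested, 30.1% were called lower and 13.1% higher in ferret astrocytes, and the median difference was -0.35, against -2.04 for the 9 members. All 9 passed the filter of a mean of at least 1 FPKM in a species. Of these, Tlr2, Tlr4, Tlr7, Tlr8 and Cd14 passed through their mouse level alone and Tlr5 through its ferret level alone, so a difference in those 6 was partly built into the filter. Tlr3, Myd88 and Ticam1 reached it in both species. The split of all calls depended on scaling, and members are given with FPKM as deposited unless another setting is named. After rescaling all 4 libraries to 1 common sum, the median of all genes moved to -0.00 and calls were 47.0% higher in ferret, against 30.3% with FPKM as deposited, and after quantile normalization the median was 0.08 and the share 50.2%.

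**Figure D1:**
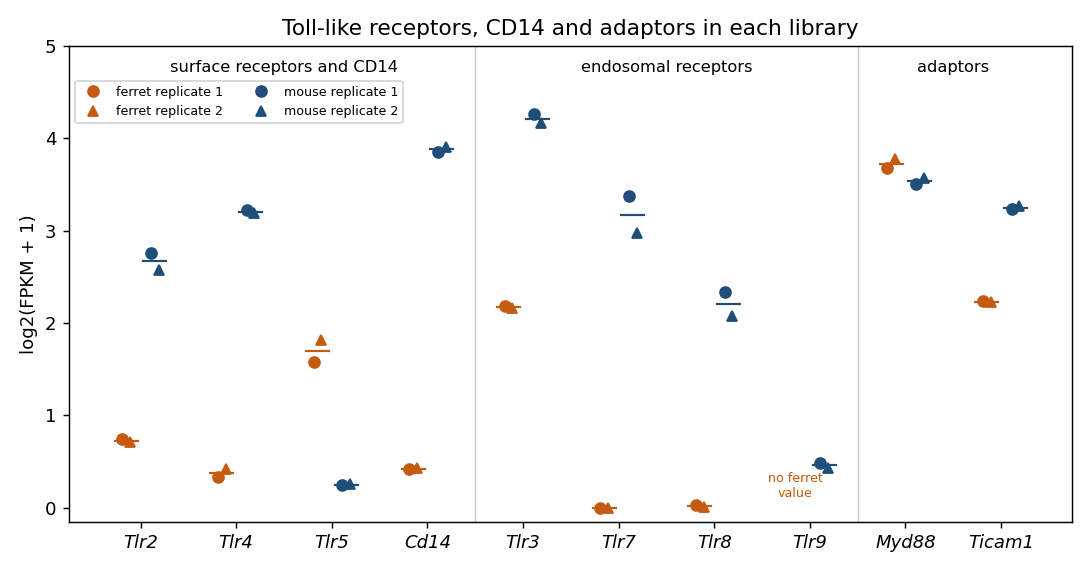
Level of each member in each of the 4 libraries as log2(FPKM + 1), with ferret libraries in orange, mouse libraries in blue, circles for replicate 1, triangles for replicate 2 and a bar at the mean of the log2 values. Tlr2, Tlr4, Cd14, Tlr3, Tlr7, Tlr8 and Ticam1 lie higher in both mouse libraries, Tlr5 lies higher in both ferret libraries, and the species lie close together for Myd88.

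Among surface receptors, Tlr4, the receptor for lipopolysaccharide, was at 0.264 and 0.334 FPKM in ferret, against 8.33 and 8.13 FPKM in mouse astrocytes. Both ferret libraries lay below both mouse libraries, and the means of 0.299 ± 0.049 and 8.23 ± 0.146 (SD, n = 2 each) differed 27.5-fold. The difference in limma was -2.83 with an SE of 0.077 (adjusted p = 4.94e-10). The mouse gene Tlr4 spans 66827584 to 66930284 of chromosome 4 (GRCm38, plus strand) in 6 exonic regions.

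Cd14, which hands lipopolysaccharide to TLR4 and its partner MD-2, was among the members that differed most. It had 0.335 and 0.350 FPKM in ferret, against 13.5 and 14.0 FPKM in mouse astrocytes, a 40.1-fold difference of the means. The duplicates lay close together in each species and the species did not overlap (difference -3.46 with an SE of 0.074, limma adjusted p = 1.23e-10).

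Tlr2, which senses bacterial lipopeptides together with Tlr1 or Tlr6, was at 0.670 and 0.641 FPKM in ferret, against 5.78 and 4.95 FPKM in mouse astrocytes. The mouse libraries were higher by 8.19-fold in the mean, and limma gave -1.94 with an SE of 0.087 (adjusted p = 1.36e-08). The mouse gene Tlr2 spans 83836272 to 83841767 of chromosome 3 (GRCm38, minus strand) in 3 exonic regions.

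Tlr5, the receptor for bacterial flagellin, went the other way. It was at 1.98 and 2.52 FPKM in ferret, against 0.186 and 0.192 FPKM in mouse astrocytes, so that both ferret libraries lay above both mouse libraries, by 11.9-fold in the mean. The difference in limma was 1.45 with an SE of 0.094 (adjusted p = 2.19e-07). The mouse gene Tlr5 spans 182954788 to 182976044 of chromosome 1 (GRCm38, plus strand) in 5 exonic regions, and no other annotated gene overlaps it. With a pseudocount of 0.1 the difference was 3.01, since its mouse level is low.

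Among endosomal receptors, Tlr3, the receptor for double-stranded RNA, was the highest Toll-like receptor of the members in both species. Its values were 3.56 and 3.46 FPKM in ferret, against 18.1 and 16.9 FPKM in mouse astrocytes. The mouse level was 4.99 times the ferret level, far beyond the spread of the duplicates (difference -2.04 with an SE of 0.071, limma adjusted p = 2.55e-09). The mouse gene Tlr3 spans 45395665 to 45411080 of chromosome 8 (GRCm38, minus strand) in 8 exonic regions, of which 381 of 5207 bases are shared with Gm45542 on the other strand, a gene at 0.528 and 0.855 FPKM in the mouse libraries.

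Tlr7 and Tlr8, receptors for single-stranded RNA, are both encoded on the mouse X chromosome, from 167304929 to 167330558 and from 167242696 to 167264329 on the minus strand. Tlr7 was listed at 0 in both ferret libraries and reached 9.39 and 6.84 FPKM in mouse astrocytes. It was called lower in ferret astrocytes (adjusted p = 4.48e-09 by limma), and no fold is given against 0. Tlr8 was at 0.0226 and 0.0088 FPKM in ferret, against 4.04 and 3.21 FPKM in mouse astrocytes, and limma gave -2.18 with an SE of 0.097 (adjusted p = 1.27e-08). With a pseudocount of 0.1 the difference was -5.002. The ferret values of Tlr8 may rest on few fragments. At the depths given above their ratio was that of 3 fragments to 1, which does not give the number of fragments. Both receptors were thus at or close to 0 in ferret astrocytes.

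Tlr9, the receptor for unmethylated CpG DNA, was at 0.400 and 0.349 FPKM in mouse astrocytes, with no ferret value. It was the lowest of the endosomal member receptors in the mouse libraries. Its gene spans 106222598 to 106226883 of chromosome 9 (GRCm38, plus strand) in 2 exonic regions.

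Of the adaptors, Myd88, which serves all members among the receptors except TLR3, was nearly level between the species. It had 11.8 and 12.7 FPKM in ferret, against 10.4 and 10.9 FPKM in mouse astrocytes. The ferret libraries were both slightly higher, with a log2 difference of 0.19 (95% interval 0.03 to 0.34, adjusted p = 0.0288 by limma), well under the limit of 1 on size. It stayed positive under all 10 alternatives, from 0.14 to 0.60, the latter after quantile normalization. The mouse gene Myd88 spans 119335934 to 119341411 of chromosome 9 (GRCm38, minus strand), and 290 of its 2576 exonic bases are shared with Acaa1a on the other strand, which had 38.1 and 39.5 FPKM in the mouse libraries. The libraries mark strand, but the sources do not say whether the counting used it.

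Ticam1, which encodes TRIF, the adaptor of TLR3 and of endosomal TLR4, was at 3.73 and 3.67 FPKM in ferret, against 8.39 and 8.64 FPKM in mouse astrocytes. Duplicates were close and species did not overlap, with a 2.30-fold difference of the means. The log2 difference of -1.02 (95% interval -1.18 to -0.86, adjusted p = 3.86e-07 by limma) stood at the limit of 1. The call was lost with libraries rescaled to the mean sum (-0.69), after quantile normalization (-0.60) and without mouse replicate 2 (-0.998), with the direction kept. The mouse gene Ticam1 spans 56269319 to 56276786 of chromosome 17 (GRCm38, minus strand) in 2 exonic regions.

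The order of levels differed between the species. In ferret astrocytes the means ran from Myd88 (12.2 FPKM) through Ticam1 (3.70), Tlr3 (3.51), Tlr5 (2.25), Tlr2 (0.655), Cd14 (0.343) and Tlr4 (0.299) to Tlr8 and Tlr7, and no neighbours overlapped between their duplicates, although the lower Cd14 value lay next to the higher Tlr4 value. In mouse astrocytes they ran from Tlr3 (17.5) through Cd14 (13.7), Myd88 (10.6), Ticam1 (8.52), Tlr4 (8.23), Tlr7 (8.12), Tlr2 (5.37), Tlr8 (3.62) and Tlr9 (0.374) to Tlr5 (0.189). The duplicates of Tlr7 spanned those of Tlr4 and Ticam1, so Tlr7 could not be placed above or below either.

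The 6 member receptors with values in both species summed to 6.50 and 6.97 FPKM in ferret, against 45.9 and 40.3 FPKM in mouse astrocytes. Tlr1 and Tlr6, which are not members, were left out of the sum. Their means were 4.66 and 5.05 FPKM in ferret, above Tlr3, and 7.02 and 3.73 FPKM in mouse, below Tlr3. Tlr3 made up 54.8% and 49.7% of the ferret sum and 39.5% and 42.1% of the mouse sum. Tlr5 was next in ferret astrocytes, with 30.4% and 36.2%, and made up 0.406% and 0.477% in mouse astrocytes. Tlr7 and Tlr8 together accounted for under 1% of the ferret sum, whereas in the mouse libraries Tlr7 was at 20.5% and 17.0% and Tlr8 at 8.80% and 7.97%. Tlr2 was the receptor whose share was most alike, at 10.3% and 9.19% in the ferret and 12.6% and 12.3% in the mouse libraries. These shares do not depend on the scaling between libraries, but with duplicates the smallest two-sided p of an exact permutation test is 0.333, and they were not tested.

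**Figure D2:**
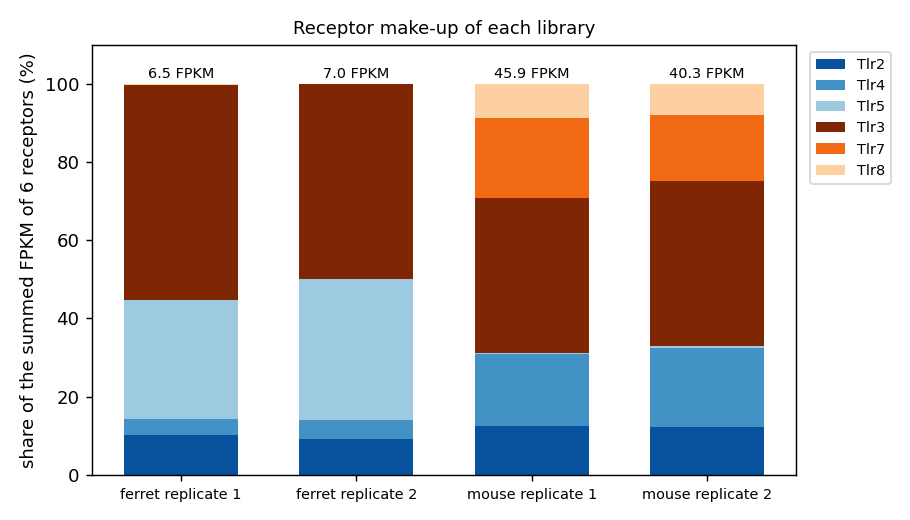
Share of each receptor (%) in the summed FPKM of Tlr2, Tlr4, Tlr5, Tlr3, Tlr7 and Tlr8, 1 bar per library, with the sum in FPKM above each bar. Blue marks surface receptors and brown to orange marks endosomal receptors, and Tlr3 and Tlr5 fill most of the ferret bars while Tlr4, Tlr7 and Tlr8 take a visible share of the mouse bars.

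Myd88 was also set against the receptors, Tlr3 included, which it does not serve. Its FPKM was 1.82 times the sum of the 6 member receptors, without Tlr1 and Tlr6, in both ferret libraries, and 0.226 and 0.270 times that sum in the mouse libraries. Myd88 stood at 3.17 and 3.45 times Ticam1 in the ferret and at 1.24 and 1.26 times Ticam1 in the mouse libraries. Tlr4 stood at 0.063 and 0.093 times Ly96, which encodes its obligate partner MD-2, in the ferret libraries, and at 1.05 and 1.13 times in the mouse libraries.

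Other genes of the pathway were taken from a list of 46, of which 40 were tested. Of these, 19 were lower and 1 was higher in ferret astrocytes and 20 were not called, beside 30.1% lower and 13.1% higher of all genes. Their median difference was -0.95. With libraries rescaled to the mean sum, as with quantile normalization, 15 of the 40 were lower and 4 higher. Hsp90b1, Irak1, Ripk1 and Nfkbia lost their calls, and Traf6, Irak4 and Tab3 gained theirs. Of all genes, 2215 were lower and 1967 higher of 10209 after rescaling, and 2090 and 2110 of 10233 after quantile normalization. The counts by role below are those with FPKM as deposited. Each count by role, of few genes, stands beside the 30.1% lower and 13.1% higher given above. Among the pathway genes called lower, Cd180, Lbp, Ly86, Cd36, Pik3ap1, Irak2, Rel and Tnfaip3 passed the filter through their mouse level alone. A lower value was thus partly built in for them.

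Of 4 genes for ligand delivery and co-receptors, 3 were called lower. Lbp, the serum-type carrier of lipopolysaccharide, showed the largest difference of the pathway list at a pseudocount of 1, though not at 0.1, where Ly86, listed at 0 in both ferret libraries, differed more. Lbp had 0.702 and 0.436 FPKM in ferret, against 29.3 and 34.4 FPKM in mouse astrocytes (difference -4.39 with an SE of 0.105, limma adjusted p = 2.25e-10). Ly96 was at 4.20 and 3.59 FPKM in ferret, against 7.91 and 7.20 FPKM in mouse, and its difference of -0.81 was not called. The lipopolysaccharide recognition genes Tlr4, Cd14 and Lbp were thus each below 1 FPKM in ferret astrocytes, and Ly96 was not.

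Of the other receptors and decoys, 3 of 7 were tested and 1 was called lower. Cd180, a Toll-like receptor homologue of B cells and myeloid cells, had 0.050 and 0.058 FPKM in ferret, against 5.12 and 4.88 FPKM in mouse (log2 difference -2.51). Tlr6 had a positive difference of 0.35, at 5.32 and 4.78 FPKM in ferret, against 3.77 and 3.69 FPKM in mouse, and Tlr1, named for the sequence it shares with Tlr6, was at 5.36 and 3.96 FPKM in ferret, against 7.19 and 6.84 FPKM in mouse. In ferret astrocytes both partners were therefore at several times the level of Tlr2. Tlr11, Tlr12 and Tlr13 had no ferret value, and in the mouse libraries Tlr13, a receptor for bacterial ribosomal RNA, stood at 11.5 and 11.1 FPKM while Tlr11 was listed at 0.

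Of 4 genes for receptor folding and transport, 3 were called lower. Unc93b1, which carries the nucleic acid-sensing receptors to endosomes, was at 4.05 and 4.23 FPKM in ferret, against 30.1 and 26.8 FPKM in mouse (log2 difference -2.52, adjusted p = 9.19e-10 by limma). Cnpy3, a chaperone of several of these receptors, was at 9.78 and 9.93 FPKM in ferret, against 29.9 and 31.6 FPKM in mouse (log2 difference -1.55). Unlike Tlr7 and Tlr8, both remained well above 1 FPKM in ferret astrocytes.

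Of the further TIR and bridging adaptors, Pik3ap1, which links the receptors to phosphoinositide 3-kinase, was at 0.044 and 0.052 FPKM in ferret, against 5.48 and 4.98 FPKM in mouse (log2 difference -2.57). Tirap, which brings MyD88 to TLR2 and TLR4, was at 1.90 and 1.93 FPKM in ferret, against 3.92 and 4.15 FPKM in mouse, and its difference of -0.79 was not called. Ticam2, the bridge between TLR4 and TRIF, was at 0.585 and 0.727 FPKM in the mouse libraries and had no ferret value.

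Of 16 kinases and ubiquitin ligases, 6 were lower, 1 was higher and 9 were not called, beside 30.1% lower and 13.1% higher of all genes. Irak2, a kinase of the MyD88 complex, was at 0.795 and 1.14 FPKM in ferret, against 9.56 and 9.65 FPKM in mouse (log2 difference -2.44). Peli1, a ubiquitin ligase that acts on IRAK proteins and RIPK1, was the gene called higher in ferret astrocytes, at 13.1 and 13.7 FPKM against 5.10 and 5.55 FPKM (log2 difference 1.19, adjusted p = 1.43e-07 by limma). Traf6, the ubiquitin ligase downstream of MyD88, was at 9.20 and 9.82 FPKM in ferret, against 4.41 and 4.29 FPKM in mouse. Its difference of 0.97 was just under the limit with FPKM as deposited. With libraries rescaled to the mean sum, Traf6 (1.31), Irak4 (1.00) and Tab3 (1.07) were called higher beside Peli1, 4 genes in all.

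Among transcription factors 3 of 6 were lower, of which Nfkb1, which encodes the p105 and p50 subunits of NF-kB, differed most at a pseudocount of 1, and Rel at 0.1, with Nfkb1 at 3.19 and 3.13 FPKM in ferret, against 15.96 and 15.6 FPKM in mouse (log2 difference -2.01). Of 5 inhibitors, 2 were lower and 3 were not called. Tnfaip3, which encodes the NF-kB-induced deubiquitinase A20, was at 0.347 and 0.289 FPKM in ferret, against 4.02 and 3.62 FPKM in mouse (log2 difference -1.87). The 3 not called had differences between 0.10 and 0.33.

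**Figure D3:**
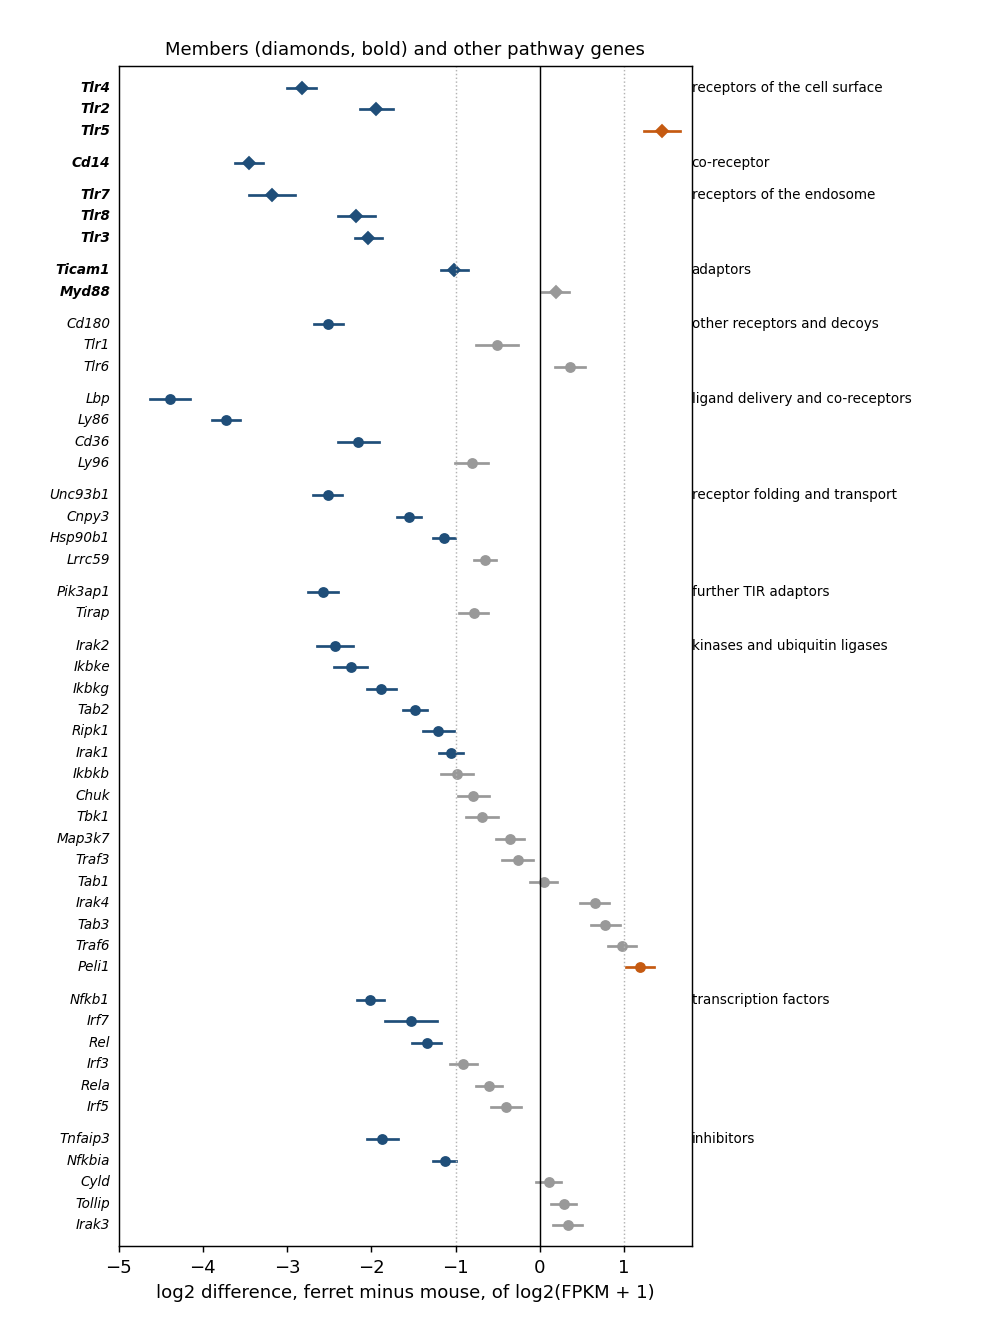
Log2 difference (ferret minus mouse, on log2(FPKM + 1)) of the 9 members (diamonds, bold names) and 40 other pathway genes (circles), grouped by role, with 95% intervals from limma. Blue marks genes called lower in ferret, orange genes called higher, grey genes not called, and dotted lines mark the limit of 1, with Tlr5 and Peli1 the genes to the right of it.

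Most microglial markers were lower in ferret astrocytes, as were most members. Of the 18 shared markers 17 were called lower in ferret astrocytes, beside 30.1% of all genes. The median difference of the 18 markers was -4.54, larger in size than that of any member at a pseudocount of 1. On that scale the mouse level bounds the size of a lower value. The markers had a mouse median of 47.8 and 47.1 FPKM, against 9.39 and 6.84 FPKM for Tlr7. Sizes of members and markers therefore cannot be ranked by it. Most of the markers called lower had a ferret mean under 1 FPKM and passed the filter through their mouse level alone. A lower call was thus partly built in for them. Aif1 had 0.050 and 0.046 FPKM in ferret, against 12.6 and 10.6 FPKM in mouse. The part of microglia in the differences of the members was not tested. Markers of meningeal fibroblasts, with 8 of 8 called lower, moved the same way, and their part was not tested either. Myd88 and Tlr5 did not follow the microglial markers in direction.

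**Figure D4:**
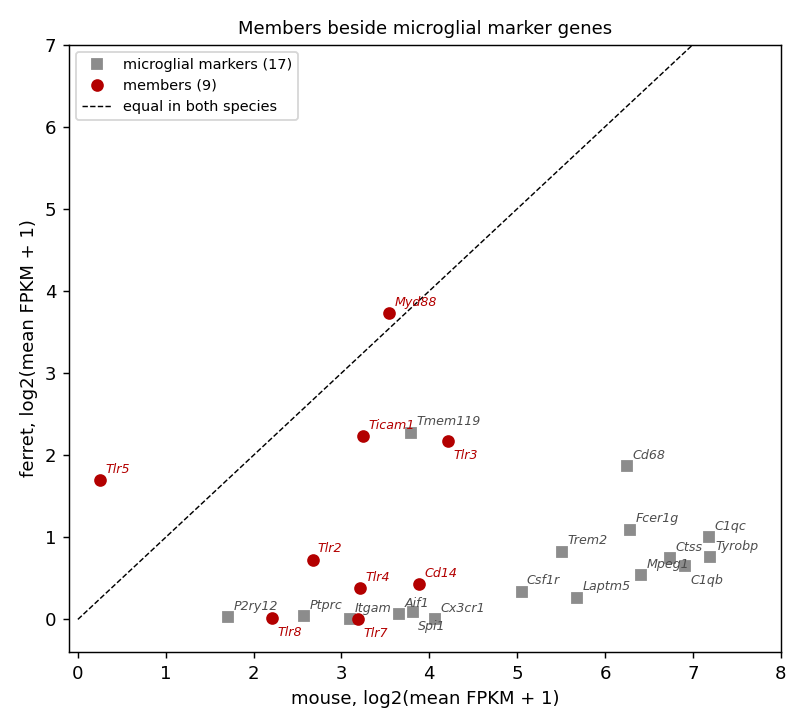
Mean level in mouse (x axis) and ferret (y axis) libraries as log2(mean FPKM + 1) for the 9 members (red circles) and 17 of the 18 shared microglial markers (grey squares), with the dashed line at equal level. Tlr7 and Cx3cr1 are at 0 in ferret, most markers and Tlr2, Tlr4, Tlr8 and Cd14 lie near the bottom, and Tlr5 and Myd88 lie on the other side of the line.

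By distance in log2(FPKM + 1) over the 4 libraries, the genes nearest to Myd88, the highest member in the ferret, were Setd2 (0.080), Kdm3b (0.083) and Cpeb4 (0.085). Those nearest to Tlr3, the highest in the mouse, were Rdh14 (0.062), Scrn3 (0.139) and Folh1 (0.164). With 4 libraries in 2 groups this likeness describes levels and no more.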

How the data were processed

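The authors aligned paired reads to the ferret and mouse (GRCm38) genomes with STAR 2.7.0f and deposited 1 FPKM value per gene and library, made with Cufflinks 2.2.1 and the Ensembl annotation of each species. Unequal gene models therefore enter every difference between species. Reads were demultiplexed with bcl2fastq 2.17, per the submitters' processing notes. Symbols were matched in upper case, taking the row with the highest species mean. Species were compared in R 4.3.3 with limma 3.58.1, its variance trend switched on, on log2(FPKM + 1), with a pseudocount of 1, for the 10204 of 13373 shared genes with a mean of at least 1 FPKM in a species. Simulated data of 10204 genes were tested with the same model, which called 99% of 200 genes changed by 1.5 and 0 unchanged genes. The study also made read counts, which were not used here, so low values carry no interval. The members, lists and tests were chosen with earlier results of these data known. All members are named, and pathway genes by the largest difference or an opposite direction in each role and by need for the receptors. Coding sequences were read from GENCODE M21 transcripts on GRCm38, a release other than the authors'. The ferret genome was not used here. Alternatives were a pseudocount of 0.1, no filter, 2 other scalings, summed rows, the replicate number as a block, and each library left out. The level of 1 microglial marker is not reported here on its own, and it is kept in the counts, sums and medians.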

Additional observations from a re-analysis of the deposited data

How the results depend on the processing

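Under 10 alternatives, no member changed direction, and 87 member values kept their side of the limits while 3 did not, all of Ticam1 in the settings given above. The number of pathway genes called higher in ferret astrocytes was 1 with FPKM as deposited, 2 with a pseudocount of 0.1, and 4 after rescaling libraries to their mean sum, as well as with quantile normalization. With each library left out in turn it was 1 to 2, the 2 being without ferret replicate 1, when Traf6 was added (1.02). A lone library in an arm was assumed to vary like the others. Pathway genes called lower numbered 19, with 15 under both rescalings and 19 to 21 under the others. Of all genes, 1336 were called higher, and 2110 after quantile normalization. With the replicate number as a block (replicate block), 1 member was higher and 7 were lower, as without it, and 1342 and 3072 of all genes were called. Deviations of same-numbered libraries had a correlation of 0.0099 across 10204 genes. With duplicates alone, this cannot show whether equal numbers mark a pairing. Under the block 0 calls of members or pathway genes were lost or gained. Tlr7, Tlr8, Tlr4, Cd14 and Tlr2 depended in size on the pseudocount, reaching -6.34, -5.002, -4.39, -4.97 and -2.85 at 0.1, which limits any statement on their folds. Values under about 0.1 FPKM may rest on a few fragments.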

Other observations

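Other sensors of the innate immune system, from a list of 20 written after the values of the members were seen, were examined as well. Of the 13 tested, 8 were lower, 5 were not called and 0 were called higher by limma, with 1 higher at an unadjusted p under 0.05, beside 30.1% lower and 13.1% higher of all genes. Of these 13, 8 passed the filter through their mouse level alone, so a lower value was partly built in. With libraries rescaled to the mean sum, 12 were tested, of which 6 were lower and 1, Nlrx1, was higher. Of all 10209 genes tested in that setting, 2215 were lower and 1967 higher. After quantile normalization 11 were tested, with 6 lower and Nlrx1 alone higher, beside 2090 lower and 2110 higher of 10233 genes. Tmem173, which encodes the DNA-sensing adaptor STING, was at 0.157 and 0.206 FPKM in ferret, against 7.58 and 7.48 FPKM in the mouse libraries. Pycard, the inflammasome adaptor ASC, was at 0.059 and 0 FPKM in ferret, against 10.3 and 8.58 FPKM in the mouse libraries. Mavs, the adaptor of cytosolic RNA sensors, stayed well expressed in both, at 7.28 and 7.77 FPKM in ferret, against 17.1 and 16.9 FPKM in the mouse libraries (log2 difference -1.08). Nlrx1, a mitochondrial NOD-like protein, was the gene with the highest ferret value relative to mouse, at 7.96 and 8.34 against 4.07 and 4.06 FPKM (log2 difference 0.85, not called with FPKM as deposited).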
